A study of Homo sapiens with 6 samples.

Results

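The 39 genes described here encode the machinery that copies chromosomal DNA and the regulators that carry a cell from G1 into S phase. They were taken by symbol from a list, and each was read by the brightest of its probe sets (short groups of oligonucleotides for 1 transcript) over the 6 arrays. All 39 were found among the 19775 genes with a probe set of their own, and all 39 were bright enough to be tested, among 14513 genes.

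DNA replication is prepared in G1, when the origin recognition complex, CDC6 and CDT1 load the ring of MCM proteins onto DNA. At the start of S phase the loaded rings are turned into moving helicases by CDC45 and the GINS complex, and polymerases, a sliding clamp and an enlarged nucleotide pool then serve the forks. Cyclin E with CDK2 releases E2F transcription factors from the retinoblastoma protein, and many replication genes are known E2F targets, so their mRNAs tend to rise and fall with the share of cycling cells.

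The study asked how highly invasive glioma cells differ from non-invasive and parental ones. U87MG is an established human glioblastoma line, here the parental cells, bought from a cell bank and grown in serum-containing medium. U87MGL, the non-invasive line, and U87MGR, the highly invasive line, were derived from it through 4 rounds of injection into the striatum of nude mice, dissociation of the brain tumour and renewed culture. Each group had 2 arrays of total RNA from cultured cells. All were titled biological replicates: 1 and 2 of U87MG, the lines U87MGL2 (replicate 1) and U87MGL3 (replicate 2), and the lines U87MGR2 (replicate 1) and U87MGR3 (replicate 2). The labels do not say what the line numbers mark or whether a line was a clone, so the p-values measure the spread between these arrays. Of the host's cells, only red blood cells were stated to be removed when tumours were dissociated.

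Signals are on the log2 scale, on which a difference of 1 is a 2-fold difference. The array medians lay between 5.29 and 5.35. Spiked-in control RNA placed the arrays in 3 batches that cut across the groups: U87MG replicate 1 with U87MGR replicate 2, both U87MGL arrays with U87MGR replicate 1, and U87MG replicate 2 alone. At either number no batch held both U87MGL and U87MG arrays, so every difference between these groups is also one between inferred batches. A fit with batches as a block reaches it only through the U87MGR arrays. The difference between control probe sets for the 3′ and the 5′ end of a transcript is a sign of RNA quality. For actin it was -0.0074 and 0.22 in U87MG and 0.25 to 0.39 in the derivatives. For GAPDH it was 0.055 and 0.073 in U87MG, 0.033 and 0.040 in U87MGL, and 0.047 and 0.24 in U87MGR. The part of RNA quality in the results below was not tested. Of 9 glioma line markers, all tested, 1 passed. It was lower in both derivatives (1.44% of all genes were called lower in U87MGR, 1.8% in U87MGL). In each derivative 0 were called higher (1.86% and 3.02%). CHI3L1, a secreted glycoprotein of mesenchymal glioma, read 13.35 and 13.32 in U87MG, 9.83 and 8.58 in U87MGL and 10.46 and 10.10 in U87MGR, and fell 17.5-fold in U87MGL and 8.31-fold in U87MGR (limma adjusted p = 0.00795 and 0.0185). NES differed by 1.14 in U87MGL and 1.18 in U87MGR (limma adjusted p = 0.205 and 0.218). S100A6 differed by -0.51 in U87MGL and -0.35 in U87MGR (limma adjusted p = 0.127 and 0.278). VIM read 14.30 to 14.46 and CD44 12.96 to 13.30 on every array, whereas the glial markers GFAP (5.21 to 5.45) and OLIG2 (4.78 to 5.67) lay near the lower limit for testing of 4.73. Among markers of other brain cells, no microglial (4 of 9 bright enough to test), neuronal (6 of 7) or oligodendrocyte (3 of 6) gene passed in limma. At an unadjusted p under 0.05 in limma, 2 of them were higher and 0 lower in U87MGR (11% and 9.78% of all genes). In U87MGL, 1 was higher and 2 were lower (13.2% and 10.1%). The host was a mouse and the probe sets are for human genes, so these values do not show whether host cells were carried along. The mean level of the 9 microglial markers was 4.92 and 4.98 in U87MG, 4.77 and 4.79 in U87MGL and 4.79 and 4.90 in U87MGR. Of 8 endothelial and pericyte markers 7 were tested. In each derivative 1 of them was called lower (1.44% of all genes in U87MGR, 1.8% in U87MGL) and 0 higher (1.86% and 3.02%). In U87MGR 3 of the 7 lay above 0 and 4 below, and in U87MGL 2 and 5. PDGFRB was called lower in U87MGR (log2 fold change -1.36, limma adjusted p = 0.0207) and in U87MGL (-0.97, limma adjusted p = 0.0355). The part of these markers was not tested.

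The upstream sequences of the members that passed the test in either derivative show which E2F and CCAAT motifs stand before the genes that moved most clearly. RefSeq start sites (assembly GRCh38.p14) were available for 33 of the 39 members, among them 6 of the 7 that passed. Each line gives the 160 bases before the start, 5′ to 3′ on the gene's strand, and capitals mark an E2F-type motif (TTTCCCGC, TTTCGCGC, TTTGCCGC or TTTGGCGC) or a CCAAT motif, on either strand.
GINS2, chr16:85688955-85689114, minus strand: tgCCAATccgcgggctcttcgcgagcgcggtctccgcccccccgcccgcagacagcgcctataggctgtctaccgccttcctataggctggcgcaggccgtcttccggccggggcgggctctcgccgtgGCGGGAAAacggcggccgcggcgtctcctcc
TYMS, chr18:657493-657652, plus strand: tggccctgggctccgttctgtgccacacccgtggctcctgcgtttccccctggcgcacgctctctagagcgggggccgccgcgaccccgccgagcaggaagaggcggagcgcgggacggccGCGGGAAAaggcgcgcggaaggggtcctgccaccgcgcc
POLA1, chrX:24693758-24693917, plus strand: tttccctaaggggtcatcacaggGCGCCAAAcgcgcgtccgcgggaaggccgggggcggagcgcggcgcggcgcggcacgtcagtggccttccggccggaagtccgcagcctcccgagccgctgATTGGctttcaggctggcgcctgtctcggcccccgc
ORC6, chr16:46689499-46689658, plus strand: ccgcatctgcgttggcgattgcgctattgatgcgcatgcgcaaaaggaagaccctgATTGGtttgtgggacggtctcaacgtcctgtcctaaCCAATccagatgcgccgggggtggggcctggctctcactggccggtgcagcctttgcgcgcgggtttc
GINS1, chr20:25407513-25407672, plus strand: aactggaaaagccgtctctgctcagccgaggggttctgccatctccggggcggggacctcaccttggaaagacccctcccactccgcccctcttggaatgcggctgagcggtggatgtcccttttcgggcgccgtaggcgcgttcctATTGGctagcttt
RRM2, chr2:10122579-10122738, plus strand: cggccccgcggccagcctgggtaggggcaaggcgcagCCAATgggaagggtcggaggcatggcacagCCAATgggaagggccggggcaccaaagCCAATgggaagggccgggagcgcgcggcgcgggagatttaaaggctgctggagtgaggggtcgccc

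GINS2 and TYMS carried the E2F-type motif 24 to 31 and 32 to 39 bases before the start, and POLA1 130 to 137 bases before it. RRM2 carried 3 CCAAT motifs, ORC6 carried 2 on opposite strands, and GINS1 carried 1 within 13 bases of the start. Over 250 bases before the start, an E2F-type motif stood in 15 of 42 windows of the members (35.7%), against 3.43% of the 21485 windows of genes on the array and 2.79% of all 35116 windows. CCAAT was present in 24 of the 42 windows (57.1%), against 32.4% and 32%. The letters TTTGAA, the core of an element of genes expressed in G2 and mitosis, were in 1 of the 42 windows, that of RRM1 (2.38%), against 10.9% and 13.3%. The windows were searched on both strands, the motifs do not overlap each other, and a match is a stretch of letters, not a shown binding site.

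Against the parental cells, nearly all of the replication genes read higher in both derivatives. In U87MGR, 38 of 39 lay above U87MG (49.4% of all genes did) and 1 below (50.6%), with a median log2 fold change of 0.63 against -0.0060 over all genes tested; the exception was MCM6. In U87MGL all 39 lay above (48.1% of all genes did) and 0 below (51.9%), with a median of 0.71 against -0.017. That comparison has no value within a spike-in batch; with 2 or 3 batches as a block its median was 0.71 or 0.50, the latter in effect without U87MG replicate 2, which is alone in its batch. On 31 members all 4 derivative arrays were above both U87MG arrays, as they were for 17.1% of all genes tested, and no member lay below in that sense (16.2% of all genes did). The comparisons share the U87MG arrays, so they are not independent of each other. In these bulk samples, a larger share of cycling cells in the derivatives and more of these mRNAs per cell cannot be told apart.

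**Figure D1:**
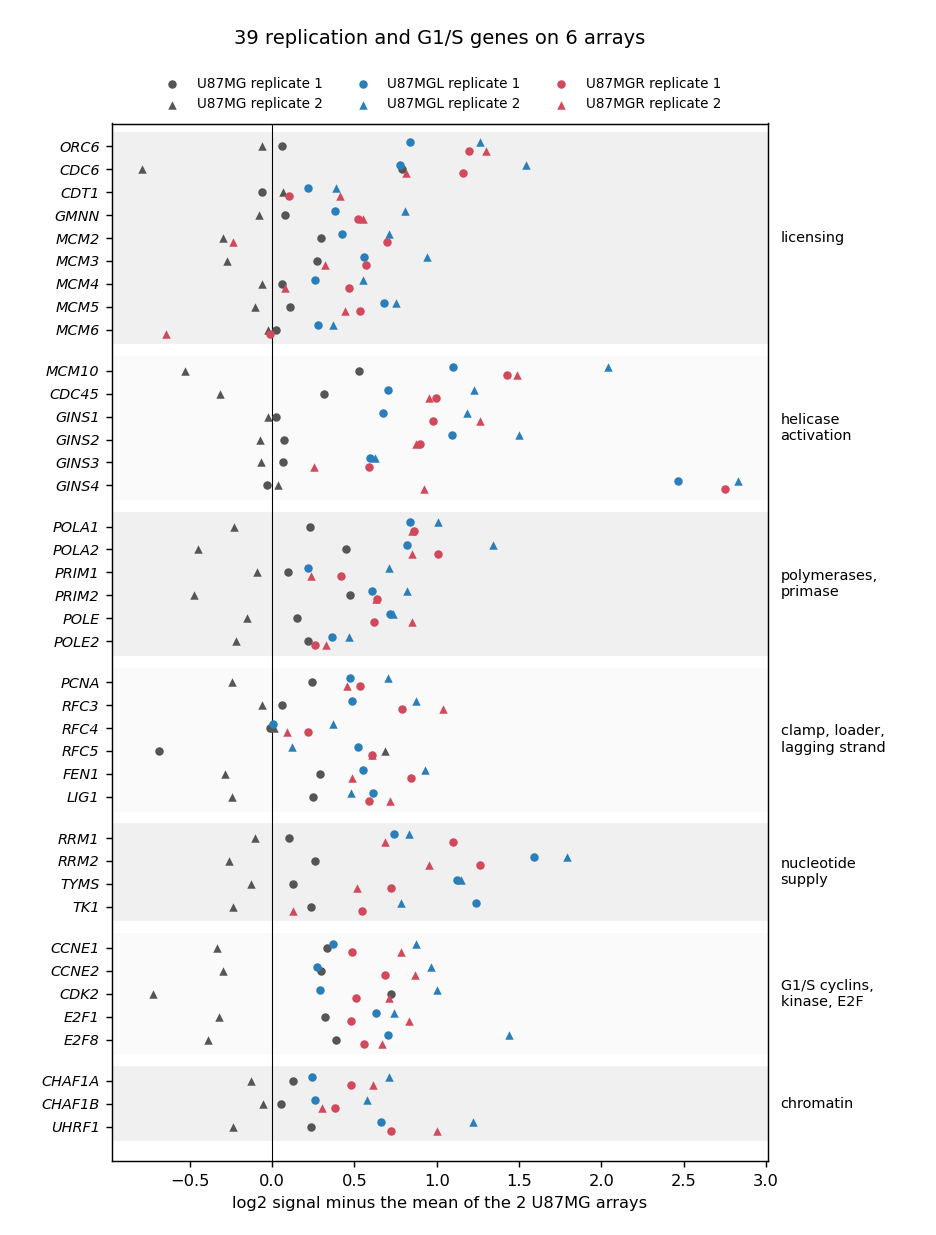
Log2 signal of each of the 39 members (rows, grouped by role) on each of the 6 arrays, as the difference from the mean of the 2 U87MG arrays; colour gives the group and shape the replicate. On 31 rows all 4 coloured points lie to the right of both grey points, and U87MG replicate 2 (grey triangle) lies left of replicate 1 on 35 of the 39.

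Few members passed the test one by one. The threshold was a p under 0.05 after Benjamini-Hochberg adjustment over all 14513 genes in limma, which fits 1 model to the 6 arrays. In U87MGR against U87MG, 3 members rose, ORC6, GINS1 and RRM2, and 0 fell, where 1.86% of all genes were called higher and 1.44% lower. Without adjustment, 23 had a p under 0.05 and were higher (11% of all genes) and 0 were lower (9.78%). In U87MGL against U87MG, 6 rose, ORC6, GINS2, GINS4, POLA1, RRM2 and TYMS, and 0 fell, against 3.02% and 1.8% of all genes; unadjusted, 26 were higher (13.2%) and 0 lower (10.1%). The arrays of the groups did not overlap for 34 members in each comparison, against 24.2% of all genes for U87MGR and 28.1% for U87MGL. The counts for U87MGR were 10 without U87MG replicate 1, 1 without U87MG replicate 2, 1 without U87MGL replicate 1 or 2, and 0 without U87MGR replicate 1 or 2, where limma still gave 15 higher at an unadjusted p under 0.05 in each case. Those for U87MGL were 20 and 2 without U87MG replicates 1 and 2, 1 and 0 without U87MGL replicates 1 and 2 (28 and 12 higher, unadjusted), and 3 without U87MGR replicate 1 or 2; with the spike-in batches as a block, limma called 0 in either comparison.

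**Figure D2:**
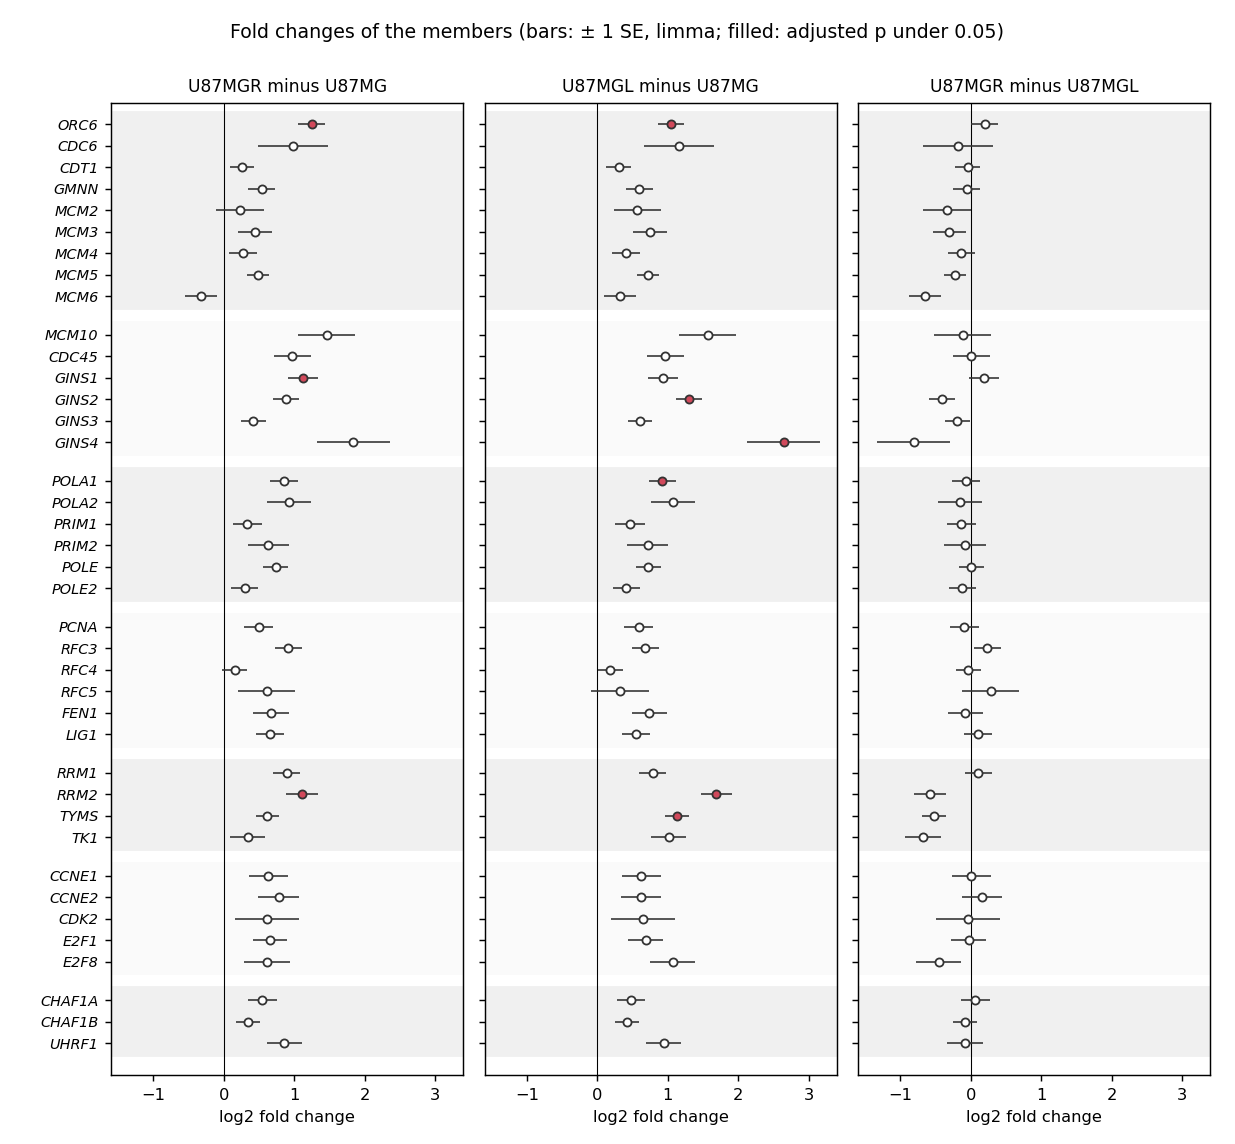
Log2 fold changes of the 39 members (rows) in the 3 comparisons, with bars of 1 SE from limma; red points passed at an adjusted p under 0.05. Red points number 3, 6 and 0 from left to right, and nearly all points lie right of 0 in the first panels, while the right panel is spread around 0.

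**Figure D3:**
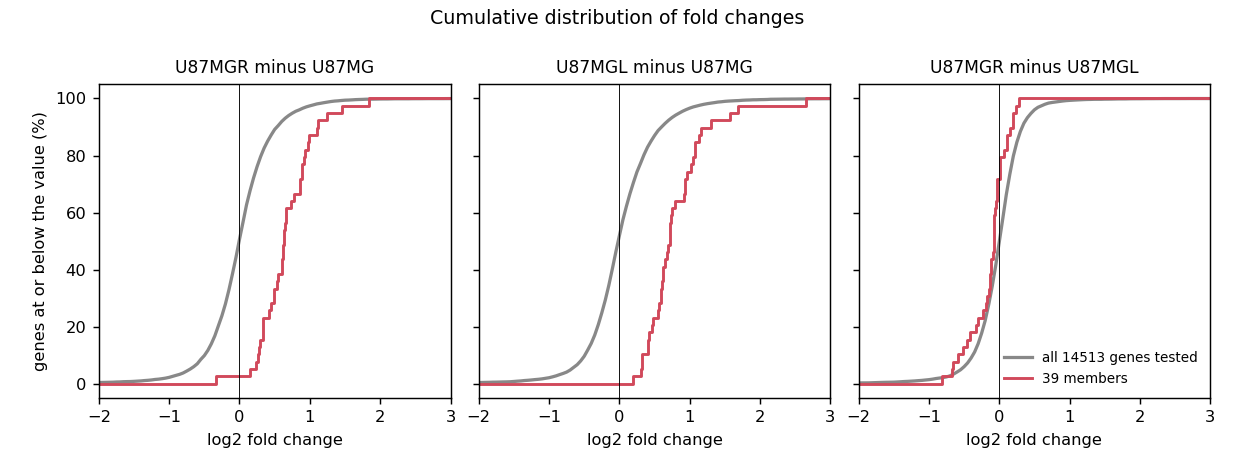
Cumulative share of genes (%) against the log2 fold change, for the 39 members (red) and all 14513 genes tested (grey), in the 3 comparisons. The members' curves cross 50% at 0.63 and 0.71 in the comparisons with U87MG and at -0.08 in U87MGR against U87MGL, where the grey curve crosses at 0.0020.

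Among the 9 licensing genes, which load the helicase on origins, ORC6 stood out. ORC6, the smallest subunit of the origin recognition complex, read 8.63 and 8.51 in U87MG, 9.41 and 9.83 in U87MGL and 9.77 and 9.87 in U87MGR. All 4 derivative arrays were above both parental ones. It rose 2.37-fold in U87MGR (log2 fold change 1.25, SE 0.19, limma adjusted p = 0.0263) and 2.07-fold in U87MGL (1.05, SE 0.19, limma adjusted p = 0.0303). It was called in 10 and 8 of 15 alternative settings, with adjusted p from 0.0223 to 0.170 and from 0.0267 to 0.468. Within the spike-in batch shared by U87MGR replicate 2 and U87MG replicate 1 the difference was 1.24.

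CDC6, the ATPase that recruits the MCM ring to the origin, read 8.19 and 6.61 in U87MG, 8.18 and 8.94 in U87MGL and 8.56 and 8.21 in U87MGR. U87MG replicate 2 alone was low, and replicate 1 lay among the derivative arrays. The fold changes were 0.99 in U87MGR and 1.16 in U87MGL (SE 0.50, limma adjusted p = 0.316 and 0.219). Without U87MG replicate 2 they were 0.20 and 0.37. CDT1, the partner of CDC6 in loading, differed by 0.26 in U87MGR and 0.30 in U87MGL. GMNN, which encodes geminin, the inhibitor of CDT1, differed by 0.54 in U87MGR and 0.60 in U87MGL.

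None of the MCM ring subunits passed in either derivative. MCM2, MCM3, MCM4 and MCM5 had fold changes of 0.23 to 0.49 in U87MGR and 0.41 to 0.75 in U87MGL, and MCM5 came nearest to passing, at 0.72 in U87MGL (SE 0.16, limma adjusted p = 0.0514). MCM7, the ring subunit kept in the list of other replication genes, differed by 1.00 in U87MGR and 0.76 in U87MGL (SE 0.24, limma adjusted p = 0.0771 and 0.126), more than any other ring subunit did in either comparison. MCM2 read 10.91 and 10.31 in U87MG, 11.04 and 11.32 in U87MGL, and 11.31 and 10.37 in U87MGR. The U87MGR arrays thus lay just inside either end of the range of the others. MCM6 read 11.15 and 11.10 in U87MG, 11.40 and 11.50 in U87MGL and 11.11 and 10.48 in U87MGR. It was the 1 member below U87MG in U87MGR (-0.33, SE 0.22, limma adjusted p = 0.454), mainly through replicate 2. Its second, dimmer probe set gave the same -0.33. MCM4 was read by 5 probe sets, of which the 3 brightest gave 0.23 to 0.46 in U87MGR and the other 2 gave -0.45 and -0.24.

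The 6 genes that turn the loaded ring into an active helicase had the largest median of all roles, 1.05 in U87MGR and 1.13 in U87MGL. All 6 were higher at an unadjusted p under 0.05 in limma in each comparison, as were 11% and 13.2% of all genes. GINS1 and GINS2 encode subunits of the 4-part GINS complex, which joins the MCM ring. GINS1 read 7.34 and 7.29 in U87MG, 7.99 and 8.50 in U87MGL, and 8.29 and 8.58 in U87MGR, without overlap. It rose 2.17-fold in U87MGR (log2 fold change 1.12, SE 0.21, limma adjusted p = 0.0433; 7 of 15 alternatives, 0.0368 to 0.229) and differed by 0.93 in U87MGL (limma adjusted p = 0.0573). GINS2 read 8.41 and 8.26 in U87MG, 9.43 and 9.83 in U87MGL, and 9.23 and 9.21 in U87MGR, again without overlap. It rose 2.46-fold in U87MGL (1.30, SE 0.18, limma adjusted p = 0.0182; 7 of 15 alternatives, 0.0166 to 0.880) and missed in U87MGR (0.89, SE 0.18, limma adjusted p = 0.0529). A dim second GINS2 probe set, at 5.70 to 5.93 on all arrays, gave -0.04 in U87MGR and -0.05 in U87MGL.

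GINS4, another subunit of the complex, had the largest difference of any member. It read 6.94 and 7.01 in U87MG, 9.44 and 9.80 in U87MGL, and 9.73 and 7.90 in U87MGR. U87MGR replicate 2 lay far below the other 3 derivative arrays yet above both parental ones. In U87MGL it rose 6.26-fold (2.65, SE 0.52, limma adjusted p = 0.0386; 9 of 15 alternatives, 0.0163 to 0.575), or by 0.82 to 0.85 with spike-in batches as a block. In U87MGR the difference was 1.84 (SE 0.52, limma adjusted p = 0.105), 2.75 without U87MGR replicate 2 and 0.92 without replicate 1. A dimmer GINS4 probe set read 5.24 and 5.15 in U87MG, 5.76 and 6.12 in U87MGL, and 5.98 and 6.20 in U87MGR, and there U87MGR replicate 2 was the highest array. GINS3 differed by 0.42 in U87MGR and 0.61 in U87MGL.

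MCM10, which bridges the helicase to the polymerase, read 7.57 and 6.52 in U87MG, 8.14 and 9.08 in U87MGL, and 8.47 and 8.53 in U87MGR. All derivative arrays were higher, but the parental arrays lay 1.06 apart, and neither 1.46 in U87MGR nor 1.57 in U87MGL passed (SE 0.40, limma adjusted p = 0.101 and 0.0761). Without U87MG replicate 2 they were 0.93 and 1.04, and without replicate 1 they were 1.99 and 2.10 and passed. CDC45, the helicase cofactor, differed by 0.97 in each derivative (SE 0.26, limma adjusted p = 0.0934 and 0.0872).

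The polymerase and primase genes had medians of 0.68 in U87MGR and 0.72 in U87MGL. For all 6 the 4 derivative arrays lay above both parental ones, as they did for 17.1% of all genes. POLA1, the catalytic subunit of the polymerase that starts each new strand, read 7.89 and 7.43 in U87MG, 8.50 and 8.67 in U87MGL, and 8.52 and 8.51 in U87MGR. The derivative arrays were close together and clear of the parental ones. It rose 1.90-fold in U87MGL (0.92, SE 0.20, limma adjusted p = 0.0474; 6 of 15 alternatives, 0.0199 to 0.584) and differed by 0.85 in U87MGR (limma adjusted p = 0.0665). POLA2, its regulatory subunit, read 8.02 and 7.12 in U87MG, 8.39 and 8.91 in U87MGL, and 8.57 and 8.42 in U87MGR. Its parental arrays were 0.90 apart, almost as far as the fold changes. These were 0.93 in U87MGR and 1.08 in U87MGL (limma adjusted p = 0.159 and 0.103). The primase subunits PRIM1 and PRIM2 differed by 0.33 and 0.63 in U87MGR and by 0.46 and 0.71 in U87MGL, and POLE and POLE2, of the leading-strand polymerase, by 0.73 and 0.30 and by 0.72 and 0.41.

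None of the 6 genes of the sliding clamp, its loader and the lagging strand passed in limma, in either derivative. At an unadjusted p under 0.05, 4 of 6 were higher in each, against 11% of all genes in U87MGR and 13.2% in U87MGL. RFC3, a subunit of the clamp loader, came nearest, at 9.01 and 8.89 in U87MG, 9.44 and 9.82 in U87MGL, and 9.74 and 9.99 in U87MGR. Its groups did not overlap between derivative and parental cells (0.91 in U87MGR, SE 0.19, limma adjusted p = 0.054; 0.68 in U87MGL, limma adjusted p = 0.0956). FEN1, the nuclease that trims Okazaki fragments, read 10.22 and 9.64 in U87MG, 10.48 and 10.86 in U87MGL, and 10.78 and 10.42 in U87MGR. Its fold changes were 0.67 in U87MGR and 0.74 in U87MGL (SE 0.25). The other FEN1 probe set gave 0.14 in U87MGR and 0.45 in U87MGL. On it U87MGR replicate 2 (9.41) read below both U87MG arrays (9.87 and 9.42). PCNA, the clamp itself, differed by 0.50 in U87MGR and 0.59 in U87MGL. LIG1, which seals the fragments, differed by 0.65 in U87MGR and 0.55 in U87MGL.

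RFC4, another loader subunit, differed by 0.15 in U87MGR and 0.19 in U87MGL, the lowest values of this role. RFC5 differed by 0.60 and 0.32 (SE 0.41), and the loader subunit RFC2, from the list of other replication genes, by 0.86 and 0.66 (limma adjusted p = 0.0728 and 0.118). RFC1, a loader subunit of the same list, differed by -0.18 in U87MGR and 0.18 in U87MGL (limma adjusted p = 0.706 and 0.677). The brightest RFC5 probe set read 9.05 and 10.42 in U87MG, 10.26 and 9.85 in U87MGL, and 10.34 and 10.34 in U87MGR, so U87MG replicate 1 alone was low, opposite to most members. The other 2 RFC5 probe sets did not show this: one read 9.15 and 8.89 in U87MG and 9.30 to 9.64 in the derivatives, and both gave 0.37 in U87MGR.

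Of the 4 nucleotide supply genes, 2 rose in U87MGL (3.02% of all genes) and 1 in U87MGR (1.86%), with medians of 1.07 and 0.75. RRM2, the small subunit of ribonucleotide reductase that limits deoxynucleotide synthesis, read 11.42 and 10.90 in U87MG, 12.75 and 12.95 in U87MGL, and 12.43 and 12.11 in U87MGR. The 3 groups did not overlap, with U87MGL highest. It rose 3.23-fold in U87MGL (1.69, SE 0.22, limma adjusted p = 0.0152; 11 of 15 alternatives, 0.0094 to 0.451) and 2.16-fold in U87MGR (1.11, SE 0.22, limma adjusted p = 0.0491; 6 of 15, 0.0294 to 0.190). The second RRM2 probe set gave 1.40 in U87MGL and 1.16 in U87MGR. On it the U87MGL arrays (11.64 and 12.11) overlapped the U87MGR arrays (11.61 and 11.68). RRM1, the large subunit, read 10.93 and 10.72 in U87MG, 11.57 and 11.66 in U87MGL, and 11.92 and 11.51 in U87MGR. It differed by 0.79 in U87MGL and 0.89 in U87MGR (SE 0.19, limma adjusted p = 0.0657 and 0.058).

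TYMS, thymidylate synthase, read 11.15 and 10.89 in U87MG, 12.14 and 12.17 in U87MGL, and 11.74 and 11.53 in U87MGR. As for RRM2, the groups were separate and U87MGL was highest. It rose 2.20-fold in U87MGL (1.14, SE 0.17, limma adjusted p = 0.0193; 10 of 15 alternatives, 0.0115 to 0.484) and differed by 0.62 in U87MGR (limma adjusted p = 0.097). TK1, the salvage enzyme thymidine kinase, differed by 1.01 in U87MGL (SE 0.25, limma adjusted p = 0.0701) and by 0.34 in U87MGR.

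The cyclins, CDK2 and E2F factors had no call in limma. At an unadjusted p under 0.05, 2 of 5 were higher in each derivative, against 11% of all genes in U87MGR and 13.2% in U87MGL. CCNE2, a cyclin E, read 8.03 and 7.44 in U87MG, 8.01 and 8.70 in U87MGL, and 8.42 and 8.60 in U87MGR. It differed by 0.62 in U87MGL and 0.78 in U87MGR (SE 0.29). U87MGL replicate 1 lay between the parental arrays. E2F1, an activator of S phase genes, read 7.98 and 7.33 in U87MG, 8.28 and 8.40 in U87MGL, and 8.13 and 8.49 in U87MGR. It differed by 0.69 in U87MGL and 0.66 in U87MGR (SE 0.25). The derivative arrays of E2F1 were all above the parental ones, by a margin smaller than the distance between the latter. CCNE1 differed by 0.62 in U87MGL and 0.63 in U87MGR and the repressor E2F8 by 1.07 and 0.61. CDK2 read 9.68 and 8.24 in U87MG, and its mean over the derivatives was -0.09 from U87MG replicate 1. Its differences from the parental mean were 0.65 in U87MGL and 0.61 in U87MGR.

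Of the chromatin genes, UHRF1, which guides DNA methylation onto the new strand, read 9.80 and 9.32 in U87MG, 10.22 and 10.78 in U87MGL, and 10.28 and 10.56 in U87MGR. It differed by 0.94 in U87MGL and 0.86 in U87MGR (SE 0.25, limma adjusted p = 0.0861 and 0.115), without overlap. CHAF1A, a subunit of the assembly factor that places histones behind the fork, read 8.33 and 8.08 in U87MG, 8.45 and 8.92 in U87MGL, and 8.69 and 8.82 in U87MGR. It differed by 0.48 in U87MGL and 0.55 in U87MGR. CHAF1B differed by 0.42 in U87MGL and 0.34 in U87MGR. None of the 3 passed in limma. At an unadjusted p under 0.05, 2 were higher in each derivative, against 11% of all genes in U87MGR and 13.2% in U87MGL.

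The distance from the parental line depended on which parental array was used. U87MG replicate 2 read below replicate 1 for 35 of the 39 members, with a median of -0.44, where 53.2% of all genes lay below with a median of -0.03. CDC6 (-1.58), CDK2 (-1.44) and MCM10 (-1.06) were farthest apart. Against U87MG replicate 1 alone all 4 derivative arrays were higher for 33 members, as for 26.4% of all genes, and within the batch that holds U87MG replicate 1 and U87MGR replicate 2 the median difference was 0.45, with 35 members above 0 (49.4% of all genes) and 4 below (50.6%). The 4 were MCM2 (-0.53), MCM6 (-0.67), TK1 (-0.11) and CDK2 (-0.01). Without U87MG replicate 2 the medians were 0.38 in U87MGR and 0.52 in U87MGL, and without replicate 1 they were 0.95 in each.

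The U87MGL arrays also differed from each other. Replicate 2 (U87MGL3) read above replicate 1 (U87MGL2) for 36 of 39 members, by a median of 0.36, where 50.1% of all genes did, by a median of 0.00068. The cyclin and E2F genes differed by a median of 0.70 and the nucleotide supply genes by 0.06; TK1 (-0.45), RFC5 (-0.41) and LIG1 (-0.13) were the 3 in the other direction. The U87MGR arrays showed no such shift: 16 of 39 were higher in replicate 2 (49.6% of all genes) and 23 lower (50.3%), with a median of -0.03, and GINS4 (-1.83), MCM2 (-0.94) and MCM6 (-0.63) were lowest.

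**Figure D4:**
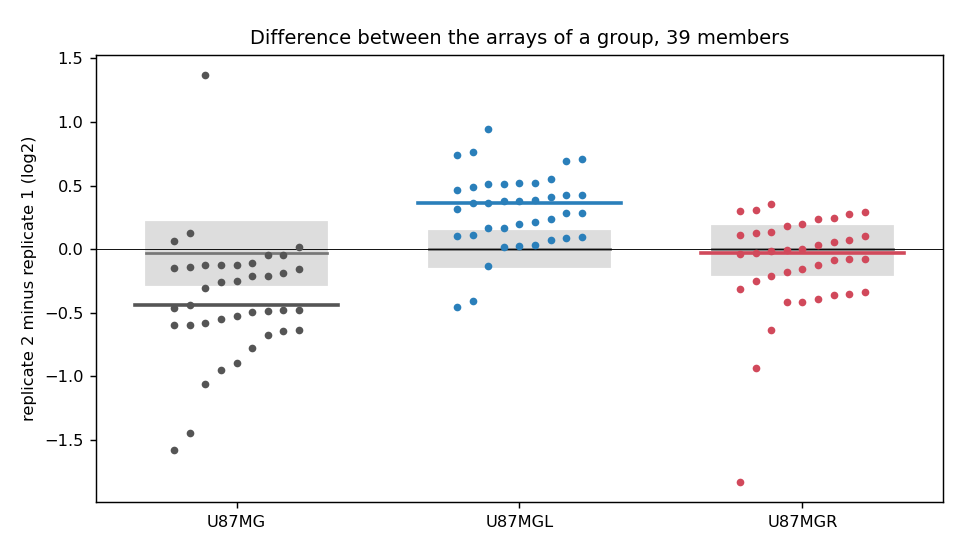
Replicate 2 minus replicate 1 (log2) in each group; points are the 39 members, spread sideways by rank, coloured lines their medians, and grey boxes the middle 50% of all genes tested with their median. The members' medians are -0.44 in U87MG, 0.36 in U87MGL and -0.03 in U87MGR.

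Between the derivatives no member passed. In U87MGR against U87MGL, limma called 0 of 39 in either direction, where 0.0413% of all genes were called higher and 0.117% lower; unadjusted, 0 were higher (3.91% of all genes) and 4 lower (4.94%). The median was -0.08 against 0.0020 over all genes tested, with 11 of 39 above 0 (50.3% of all genes) and 28 below (49.7%). Within the batch of U87MGR replicate 1 and both U87MGL arrays, 13 were higher (49.7%) and 26 lower (50.3%), with a median of -0.06. The 95% intervals reached a median of 0.50 to either side. They stayed within 1 log2 unit of 0 for 29 members and reached beyond it for 10, with bounds as far as -2.03 (GINS4) and 1.24 (RFC5), so the intervals allow differences of those sizes.

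The 4 members with an unadjusted p under 0.05 were TK1, MCM6, RRM2 and TYMS. TK1 read 9.70 and 9.22 in U87MG, 10.70 and 10.24 in U87MGL, and 10.00 and 9.59 in U87MGR, where U87MGR overlapped the parental arrays and U87MGL did not. The difference between the derivatives was -0.67 (95% interval -1.27 to -0.08, limma adjusted p = 0.504), and its second probe set gave -0.77. MCM6 differed by -0.65 (-1.18 to -0.12, limma adjusted p = 0.45), RRM2 by -0.58 (-1.11 to -0.05, limma adjusted p = 0.52) and TYMS by -0.52 (-0.92 to -0.12, limma adjusted p = 0.425). The second probe set gave -0.71 for MCM6 and -0.73 for TYMS. For RRM2 it gave only -0.23, and there the arrays of the derivatives overlapped. Within the batch of both U87MGL arrays and U87MGR replicate 1, the differences were -0.47 for TK1, -0.34 for MCM6, -0.42 for RRM2 and -0.41 for TYMS. GINS4 had the largest value, -0.81 (-2.03 to 0.41), but it was 0.11 without U87MGR replicate 2.

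On the brightest probe set of each member, the arrays of the derivatives did not overlap for 9 members lower in U87MGR (MCM5, MCM6, GINS2, GINS3, POLE2, RRM2, TYMS, TK1 and E2F8) and for 1 higher, RFC5. Of all genes, 23.3% were separated in each direction. The brightest RFC5 probe set gave 0.28 for U87MGR against U87MGL, and the others gave -0.12 and 0.01.

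Other genes of the same pathway, from lists of their own, were read the same way. Over all genes, 1.86% were called higher and 1.44% lower in U87MGR, and 3.02% and 1.8% in U87MGL. Of 47 tested genes of replication outside the members, 5 rose and 0 fell in U87MGR and 3 rose and 0 fell in U87MGL. Their medians were 0.57 and 0.56. DBF4, which activates the CDC7 kinase that fires origins, rose 3.07-fold in U87MGR (limma adjusted p = 0.0185), and MCM8, a relative of the ring subunits that acts in repair, rose 2.92-fold (limma adjusted p = 0.0223). In U87MGL, MCM8 rose 2.81-fold (limma adjusted p = 0.0187) and HELLS, a chromatin remodeller, 2.63-fold (limma adjusted p = 0.0187). Of 23 other G1/S regulators, 1 rose in each derivative and 0 fell, with medians of 0.22 and 0.46: the repressor E2F7 in U87MGR (2.91-fold, limma adjusted p = 0.0383) and CCNA2, cyclin A, in U87MGL (2.39-fold, limma adjusted p = 0.0293).

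Genes of mitosis, the stage that follows replication, also read higher. Of 26 tested, 14 rose in U87MGR and 19 in U87MGL and 0 fell, with medians of 1.16 and 1.01. Of all genes, 1.86% were called higher and 1.44% lower in U87MGR, and 3.02% and 1.8% in U87MGL. MKI67, the gene of the Ki-67 proliferation marker, read 8.46 and 8.65 in U87MG, 10.07 and 10.30 in U87MGL, and 10.20 and 10.18 in U87MGR, and the derivatives were clear of the parental arrays. The 2 U87MGL arrays, which differed by a median of 0.36 in the replication genes, differed by -0.05 in the mitosis genes. The U87MG arrays differed by -0.34 there, in the same direction as for the members. Whether the groups of genes differ was not tested.

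**Figure D5:**
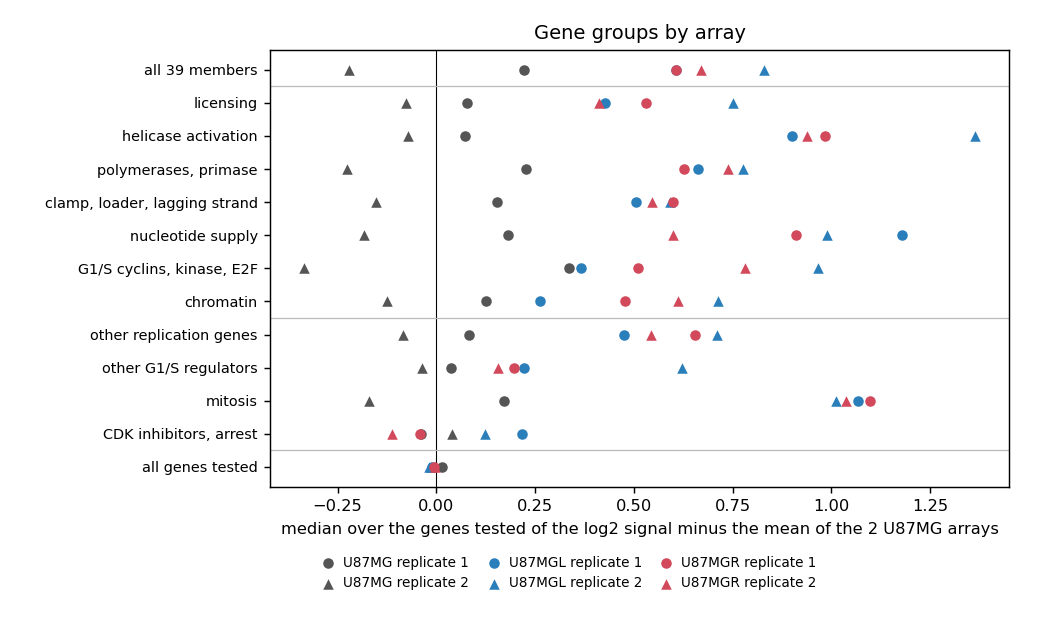
Median over the tested genes of each group (rows) of the log2 signal minus the mean of the 2 U87MG arrays, for each of the 6 arrays. For all 39 members the derivative arrays lie at 0.61 to 0.83 and the parental arrays at 0.22 and -0.22; for the mitosis genes the derivatives lie at 1.01 to 1.10.

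The choice of probe set mattered for some members. The 39 members had 75 probe sets, and 21 members had more than 1 above the lower limit for testing. Of these 21, 17 had the same sign on all such probe sets in U87MGR and 17 in U87MGL. The exceptions were CDK2, GINS2, MCM4 and RFC3 in both comparisons, each with a dimmer probe set that lay below 0.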

How the data were processed

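Total RNA from U87MG, U87MGL and U87MGR cells was hybridised to 6 single-colour oligonucleotide arrays, 2 per group. For 54675 probe sets the authors deposited 1 value per array, on a log2 scale as judged from its range (2.38 to 14.6); array medians are nearly equal, and the normalization method is not given in sources used here. No further scaling was applied. Of the probe sets, 41097 had 1 symbol, 1801 several and 11777 none in the platform's probe table; only the first were used, and 6 of 39 members had no promoter in the RefSeq table (MCM4, MCM5, GINS4, CCNE2, CDK2, E2F8). Each gene took its brightest probe set, tested where its mean was at or above the 40th percentile over probe sets (4.73).

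One limma model (version 3.58.1, R 4.3.3) with a mean per group gave 3 contrasts; it had 3 residual and 4.05 prior degrees of freedom. Calls used a two-sided Benjamini-Hochberg adjusted p under 0.05. The pipeline was tested on simulated data. Precision is limited by the number of arrays; the median SE was 0.19 for U87MGR against U87MG.

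The members, lists and motifs were chosen with earlier results of these data known. All members could be named; array values were given for those called in any contrast and for the 2 of each role with the largest fold change of U87MGR against U87MG, plus MCM2, MCM6, RFC5, TK1 and CDK2, chosen after their values were seen. Of other lists, up to 2 called genes per direction were named, or with no call up to 2 with the largest change, and MKI67 and CDKN2A. Outside this rule, MCM7, RFC1, RFC2 and the markers NES, S100A6, VIM, CD44, GFAP and OLIG2 were named too. Spike-in batches came from clustering 21 control probe sets.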

Additional observations from a re-analysis of the deposited data

How the results depend on the processing

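The alternatives were the probe set of a gene, the lower limit for testing, a further quantile normalization, an intensity trend, spike-in batches or the replicate number as a block, within-batch differences, and each array left out. The members called in U87MGR against U87MG were 6 with a limit at the 60th percentile, 5 with an intensity trend and 0 with 2 or 3 spike-in batches as a block (15 and 12 higher and 1 and 1 lower at an unadjusted p under 0.05 in limma); leaving out 1 array gave 0 to 10. Those in U87MGL against U87MG were 0 with either block (9 and 12 higher, 0 and 0 lower, unadjusted) and 0 to 20 with 1 array left out. The cause was not tested; the blocks leave 2 or 1 residual degrees of freedom. The median in U87MGL was 0.50 with 3 batches as a block, and leaving out 1 array gave medians of 0.38 to 0.95 in U87MGR and 0.52 to 0.95 in U87MGL. Between the derivatives the count was 0 in every setting run, and the median went from -0.25 without U87MGL replicate 1 to 0.04 without U87MGL replicate 2. GINS2 read from its dim probe set without _s_at gave -0.039 in U87MGR and -0.052 in U87MGL against U87MG, and GINS4 in U87MGR against U87MGL gave 0.11 with either block, within its batch and on leaving out U87MGR replicate 2; leaving out replicate 1 gave -1.72.

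With the replicate number as a block (a paired fit), 2 members were called in U87MGR, 6 in U87MGL and 0 between the derivatives, with medians of 0.63, 0.71 and -0.08. Equally numbered arrays share only a number: after group means were removed, their correlations across genes were -0.09, 0.11 and 0.01. Depth has no counterpart on these arrays, and all 39 members lay above the limit for testing.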

Other observations

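Of 12 CDK inhibitors and growth arrest genes, 10 had a probe set of their own and 8 were tested. None passed in limma in any comparison, and the medians were -0.06 in U87MGR against U87MG, 0.14 in U87MGL against U87MG and -0.27 between the derivatives. In U87MGR against U87MG the 8 ranged from -0.95 to 0.49, with 4 above 0 and 4 below. At an unadjusted p under 0.05 in limma, 0 were higher and 2 lower in U87MGR (11% and 9.78% of all genes). The counts were 0 and 1 in U87MGL (13.2% and 10.1%) and 0 and 1 between the derivatives (3.91% and 4.94%). CCNG2, an atypical cyclin of arrested cells, read 8.72 to 9.26 on the 4 arrays of U87MG and U87MGL, and 8.62 and 7.75 in U87MGR (log2 fold change -0.95 in U87MGR, SE 0.29, limma adjusted p = 0.127). CDKN2A, which encodes the CDK4 inhibitor p16 and is known as a deleted locus of the U87MG line, still gave a signal on the 6 arrays. It read 6.84 and 7.52 in U87MG, 6.33 and 6.34 in U87MGL, and 6.14 and 6.53 in U87MGR. The differences were -0.84 in U87MGR and -0.85 in U87MGL (limma adjusted p = 0.121 and 0.108). What its probe set picks up was not tested.

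Among the other G1/S regulators, CCND2, a D-type cyclin, had the largest difference between the derivatives. It read 5.10 and 4.25 in U87MG, 5.28 and 6.98 in U87MGL, and 4.12 and 4.60 in U87MGR (log2 fold change -1.77 for U87MGR against U87MGL, SE 0.54, limma adjusted p = 0.392). The value rests largely on U87MGL replicate 2. E2F7 was next, at 1.06 (SE 0.28, limma adjusted p = 0.296), with both U87MGR arrays, at 10.15 and 10.60, above the other 4.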
